A study of Mus musculus with 5 samples.

Results

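The proteasome is the protease complex that degrades most ubiquitin-tagged proteins of the cytosol and nucleus. Its 20S core is a barrel of stacked α and β rings, in which the β subunits cut protein chains. The 19S regulator caps the barrel: ring-shaped ATPases unfold the substrate, and non-ATPase subunits bind ubiquitin and remove it. Alternative caps, the PA28 and PA200 activators, open the barrel without ubiquitin, and interferon replaces the cutting β subunits with inducible ones that favour peptides for antigen presentation.

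The genes described here are those whose symbol is Psma to Psmg followed by a number, without the inducible subunits Psmb8, Psmb9 and Psmb10. The rule found 45 genes among the 24100 of the count table, and all 45 passed the filter on low counts. By role they fall into 8 genes of the α ring, 8 of the β ring, 6 ATPases, 11 non-ATPase subunits, 3 assembly chaperones of the 19S base that carry Psmd names, 4 activator genes, and the regulator Psmf1 with the 4 core assembly chaperones Psmg1 to Psmg4.

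Cells were sorted from back skin of males on a mixed CD1/C57Bl6J background, and their RNA was sequenced. The quiescent melanocyte stem cells (quiescent McSC; 2 libraries, postnatal days 60 and 62, second telogen, 4 males pooled in each) carried a Dct-eGFP reporter. They were gated as reporter-positive, with medium to low integrin α6, and without CD34, Sca1, CD140a, CD45 or CD31 on the surface. Melanocytes (3 libraries, postnatal day 10, full anagen, 3, 2 and 4 males pooled) carried Dct-EGFP and Lef1-RFP and were gated in the same way and also for Lef1-RFP and c-Kit. Age, hair cycle stage, strain reporter and gate therefore changed together and cannot be told apart as sources of a difference. In bulk RNA, fewer cells of a type and less RNA per cell cannot be told apart either.

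Total counts per library were 67483295 and 124530834 in quiescent McSC and 36502516, 67275054 and 17512381 in melanocytes. Levels are given as CPM, counts scaled to a common library size with the trimmed mean of M-values (TMM). The lineage markers Dct, Tyr, Tyrp1, Pmel, Mlana, Sox10, Mitf and Kit were detected in every library, and their summed level was 19060 to 20300 CPM in quiescent McSC, against 2996, 17600 and 19160 CPM in melanocyte replicates 1, 2 and 3. Of these 8 markers, Mitf (log2 fold change 3.45), Kit (2.13) and Sox10 (1.81) were higher in quiescent McSC and 5 were not called, among them Tyr (-1.60) and Mlana (-1.57). Libraries of both groups also held RNA of other skin cells. All 10 hair follicle markers were lower in quiescent McSC (summed 17.8 to 42.9 CPM, with Krt34 at 0 counts, against 2897 to 4509 CPM in melanocytes). So were 7 of 8 fibroblast markers (all 8 summed to 31.5 to 68.7 CPM against 1915 to 5472 CPM). The same held for 5 of 6 endothelial markers (all 6 summed to 8.86 to 11.6 CPM against 19.1 to 44.4 CPM) and 5 of 8 immune markers (all 8 summed to 13.0 to 14.6 CPM against 32.7 to 61.1 CPM). The endothelial marker Esam and the immune markers Cd68 and Cd207 were higher in quiescent McSC. Esam (8.13 and 10.5 CPM) and Cd68 (11.1 and 10.85 CPM) gave most of the endothelial and immune sums there. Of 9 keratinocyte markers, 4 were higher and 4 lower (3065 to 4202 CPM against 3615 to 4962 CPM). Krt1, Krt10, Krt15 and Krtdap were higher in quiescent McSC, and Krt5, Trp63, Dsp and Sfn were lower. Krt10 stood at 657 and 1261 CPM in quiescent McSC, against 70.5, 14.3 and 37.1 CPM in melanocytes. Trp63 stood at 89.6 and 77.6 CPM, against 611, 658 and 546 CPM. Of the 12 stress genes that cell dissociation is known to induce, 12 were higher in quiescent McSC (26200 to 40550 CPM against 2364 to 2778 CPM). The part of these other cells, and of dissociation, in the proteasome result was not tested.

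Promoter windows of 3 genes are shown because they stand for the opposite movements described below: Psme1 and Psme2, the neighbouring PA28 genes that were higher in quiescent McSC, and Psmb5, the core subunit gene with the smallest p, which was lower. Each window holds 200 bases before and 25 bases from the annotated start (RefSeq, GRCm38.p6), written along the gene's own strand, with letters of a searched motif in capitals.
Psme1, chr14:55578294-55578518, plus strand: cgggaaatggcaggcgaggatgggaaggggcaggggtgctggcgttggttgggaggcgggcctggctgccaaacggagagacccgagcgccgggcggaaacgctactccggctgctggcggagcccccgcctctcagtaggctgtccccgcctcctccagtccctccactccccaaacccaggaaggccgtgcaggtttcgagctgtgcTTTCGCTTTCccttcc
Psme2, chr14:55591077-55591301, minus strand: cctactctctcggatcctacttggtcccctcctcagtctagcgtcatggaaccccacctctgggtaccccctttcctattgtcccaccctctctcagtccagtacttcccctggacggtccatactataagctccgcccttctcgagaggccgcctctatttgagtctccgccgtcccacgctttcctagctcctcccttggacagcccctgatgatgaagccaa
Psmb5, chr14:54617971-54618195, minus strand: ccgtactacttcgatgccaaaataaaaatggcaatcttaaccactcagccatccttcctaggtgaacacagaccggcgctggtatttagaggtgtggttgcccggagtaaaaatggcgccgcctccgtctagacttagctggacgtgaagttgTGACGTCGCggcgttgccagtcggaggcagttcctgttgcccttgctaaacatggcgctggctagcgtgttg
The capitals in Psme1 mark a match, on the opposite strand, to the interferon-stimulated response element (searched as GAAA, any 2 bases, GAAA), from base 10 to base 19 of the transcribed side. Those in Psmb5 mark a match to the antioxidant response element core TGACNNNGC, the kind of site bound by the transcription factor NFE2L1, from 47 to 39 bases before the start. No searched motif was in the Psme2 window printed.

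Most proteasome genes were lower in quiescent McSC than in melanocytes. In edgeR's quasi-likelihood test with Benjamini-Hochberg adjustment over all tested genes, 34 of the 45 members (75.6%) were lower, 3 were higher and 8 were not called at an adjusted p of 0.05. Of all 16953 genes tested, 29.1% were lower and 26.2% higher, and 55.4% were called in either direction. Among the 10301 genes of at least 10 CPM on average, which include 43 members, 30.5% were lower. The median log2 fold change (quiescent McSC over melanocyte) of the members was -0.72, a 1.65-fold lower level, and that of all tested genes was -0.03.

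The members' summed level was 3859 and 3581 CPM in quiescent McSC libraries, against 5574, 6649 and 5852 CPM in melanocyte libraries. They held 0.357% and 0.322% of all counts in quiescent McSC, and 0.619%, 0.674% and 0.625% in melanocytes. Every melanocyte library was above both quiescent McSC libraries in these sums. Melanocyte replicate 1, whose fibroblast markers summed to 5472 CPM and whose lineage markers to 2996 CPM, had the lowest of the 3 melanocyte sums of proteasome RNA. Replicate 2, whose hair follicle markers summed to 4509 CPM, against 3034 and 2897 CPM in replicates 1 and 3, had the highest. The part of these other cells in the sums was not tested.

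The groups did not overlap in 41 members (91.1%), 37 of them with the lower values in quiescent McSC, against 74.5% of all genes tested. Melanocyte replicate 2 was the highest melanocyte library for 37 of the 45 members, and quiescent McSC replicate 1 was above replicate 2 for 36. For the 43 members of at least 10 CPM the coefficient of variation had a median of 5.34% between quiescent McSC libraries and 10.9% between melanocyte libraries. Of the 34 lower calls, 23 held under each of the 12 alternative settings, and 23 lower calls were made without quiescent McSC replicate 2 and 25 without replicate 1.

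**Figure D1:**
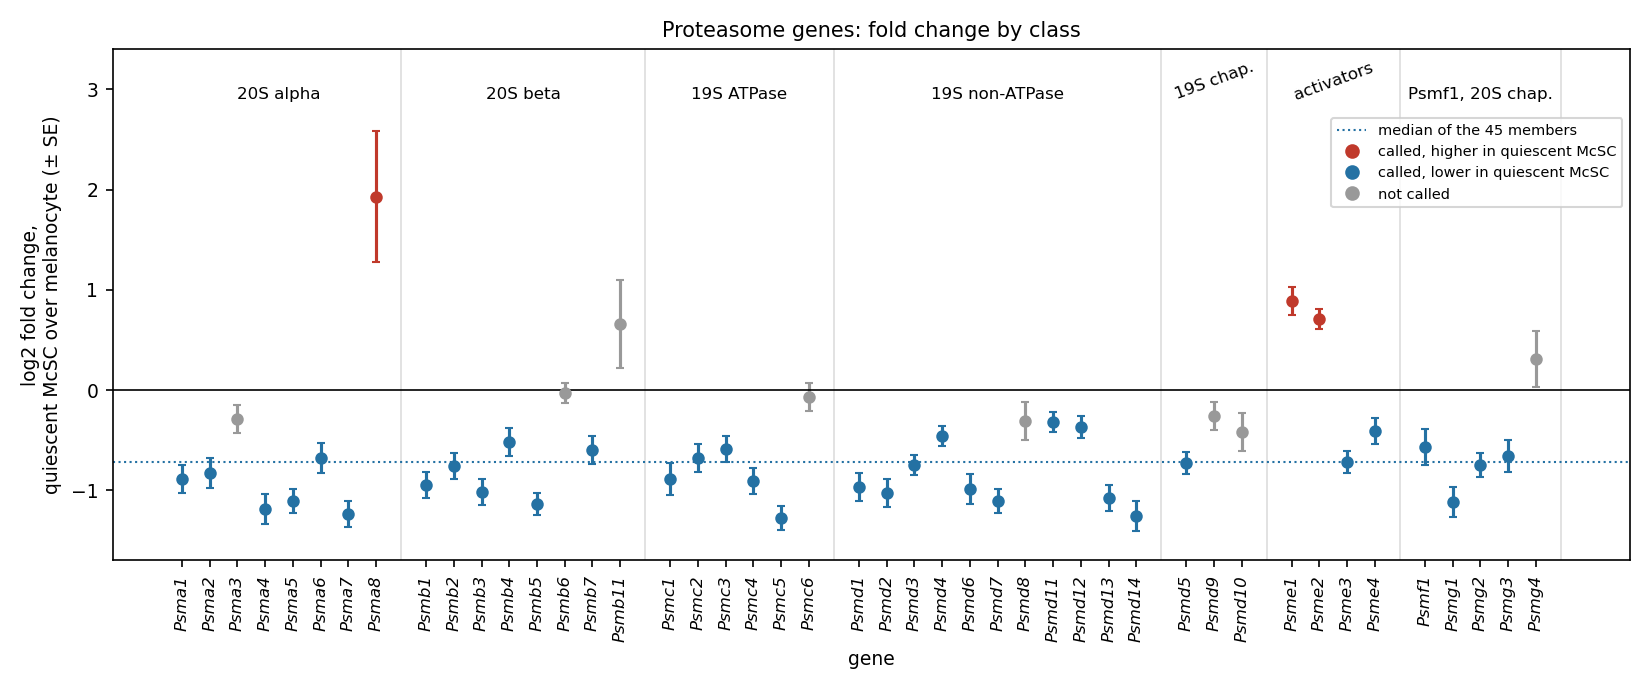
Log2 fold change (quiescent McSC over melanocyte, ± SE, y axis) of the 45 proteasome genes, ordered by class along the x axis (chap., assembly chaperones), with genes called higher, called lower and not called in different colours. Most points lie below 0, spread on both sides of the dotted line at the members' median of -0.72, and Psme1, Psme2 and Psma8 are called above 0.

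The α ring forms the gates at both ends of the 20S core. Of its 8 genes, 6 (75.0%) were lower in quiescent McSC, 1 (12.5%) was higher and 1 was not called, with a median log2 fold change of -0.86. Of all genes tested, 29.1% were lower and 26.2% higher. Psma7, the α4 subunit (chromosome 2, 180036367 to 180042464), stood at 75.3 and 72.4 CPM in quiescent McSC, against 166, 197 and 160.5 CPM in melanocytes. The groups were far apart relative to their spread (log2 fold change -1.24 ± 0.13 SE, adjusted p = 0.000628). Psma4 (-1.19) and Psma5 (-1.11) differed by similar amounts, and Psma1 (-0.89), Psma2 (-0.83) and Psma6 (-0.68) by less. Psma3, the α7 subunit, was closer in the groups. It stood at 172 and 146 CPM in quiescent McSC, against 185, 218 and 179 CPM in melanocytes, without a call (-0.29 ± 0.14, adjusted p = 0.134).

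Psma8 encodes an α4 variant known from male germ cells. It was the α gene with a positive fold change, at 2.37 and 1.02 CPM in quiescent McSC (148 and 114 counts), against 0.173, 0.542 and 0.642 CPM in melanocytes (7, 37 and 12 counts). All of these levels were far below those of the other α genes. Its call (log2 fold change 1.93 ± 0.65, adjusted p = 0.0447) did not hold when quiescent McSC replicate 1 (adjusted p = 0.277) or 2 (0.0566) or melanocyte replicate 2 (0.0854) or 3 (0.0586) was left out, or with library size as the sole scaling (0.0638). Psma6 was not called when quiescent McSC replicate 2 was left out (0.0808).

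The β ring carries the cutting sites, on the subunits β1 (Psmb6), β2 (Psmb7) and β5 (Psmb5). Of its 8 genes, 6 were lower in quiescent McSC (75.0%, against 29.1% of all genes tested) and 2 were not called. The median log2 fold change was -0.68. Psmb5, which gives the chymotrypsin-like activity (chromosome 14, 54614120 to 54617995), stood at 54.4 and 56.2 CPM in quiescent McSC, against 114, 128 and 124.8 CPM in melanocytes. It was 2.21-fold lower in quiescent McSC (-1.14 ± 0.11, adjusted p = 0.000397). Psmb7, which gives the trypsin-like activity, stood at 127 and 114 CPM, against 165, 206.5 and 174 CPM (-0.60 ± 0.14, adjusted p = 0.0121).

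Psmb6, which gives the caspase-like activity, did not separate the groups, at 138 and 134 CPM in quiescent McSC, against 133, 143 and 141 CPM in melanocytes (-0.03 ± 0.10, adjusted p = 0.806). Among the structural β subunits, Psmb3 (-1.02), Psmb1 (-0.95), Psmb2 (-0.76) and Psmb4 (-0.52) were lower in quiescent McSC. Psmb11, the β5 variant of thymic cortical epithelium, was at most 1.97 CPM in any library and was not called (0.66 ± 0.44, adjusted p = 0.241). Psmb7 was not called when replicate 1 (0.0509) or 2 (0.0966) of quiescent McSC was left out. The same held for Psmb4 (0.133 and 0.0907), and also when melanocyte replicate 2 (0.0553) or 3 (0.0604) was.

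The 6 ATPases form the ring of the 19S base that unfolds substrates and threads them into the core. Of these, 5 were lower in quiescent McSC (83.3%, against 29.1% of all genes tested) and 1 was not called. The median log2 fold change was -0.78. Psmc5 (chromosome 11, 106256185 to 106263112) had the most negative fold change of all members, at 84.1 and 73.2 CPM in quiescent McSC, against 185, 206 and 181 CPM in melanocytes. That is a 2.42-fold lower level (-1.28 ± 0.12, adjusted p = 0.000478). Psmc4 (-0.91), Psmc1 (-0.89), Psmc2 (-0.68) and Psmc3 (-0.59) were also lower. Psmc6 overlapped between the groups, at 164 and 140.3 CPM in quiescent McSC, against 144, 178 and 156 CPM in melanocytes (-0.07 ± 0.14, adjusted p = 0.716). Without quiescent McSC replicate 2, 3 ATPase genes were lower: Psmc2 (0.0727) and Psmc3 (0.0736) lost their calls, and Psmc3 also did without replicate 1 (0.0582).

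The non-ATPase subunits bind ubiquitin chains, hold the lid together and remove ubiquitin before degradation. Of 11 genes, 10 were lower in quiescent McSC (90.9%, against 29.1% of all genes tested) and 1 was not called. The median log2 fold change was -0.97. Psmd14, the deubiquitinase of the lid (chromosome 2, 61711694 to 61800376), stood at 53.7 and 46.8 CPM in quiescent McSC, against 109, 137 and 114 CPM in melanocytes (-1.26 ± 0.15, adjusted p = 0.000861). Psmd7, its binding partner in the lid (chromosome 8, 107580380 to 107588482), stood at 90.9 and 82.2 CPM in quiescent McSC, against 174, 200 and 186 CPM in melanocytes (-1.11 ± 0.12, adjusted p = 0.000651). Both genes were lower in each quiescent McSC library than in any melanocyte library.

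The lid subunits Psmd13 (-1.08) and Psmd6 (-0.99) and the large base scaffolds Psmd2 (-1.03) and Psmd1 (-0.97) had fold changes close to these, and Psmd3 (-0.75) was somewhat closer to 0. The ubiquitin receptor Psmd4 (-0.46), Psmd12 (-0.37) and Psmd11 (-0.32) differed less, and Psmd8 was not called (-0.31 ± 0.19, adjusted p = 0.203). The 3 calls nearest to 0 among these did not hold when replicate 1 or 2 of quiescent McSC was left out (adjusted p = 0.0716 and 0.0785 for Psmd4, 0.0801 and 0.199 for Psmd12, 0.105 and 0.183 for Psmd11). Psmd12 and Psmd11 also lost them without melanocyte replicate 2 (0.0799 and 0.088) or 3 (0.0711 and 0.053), Psmd11 did without the filter on low counts (0.0505), and Psmd8 was called lower without melanocyte replicate 1 (0.0327).

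**Figure D2:**
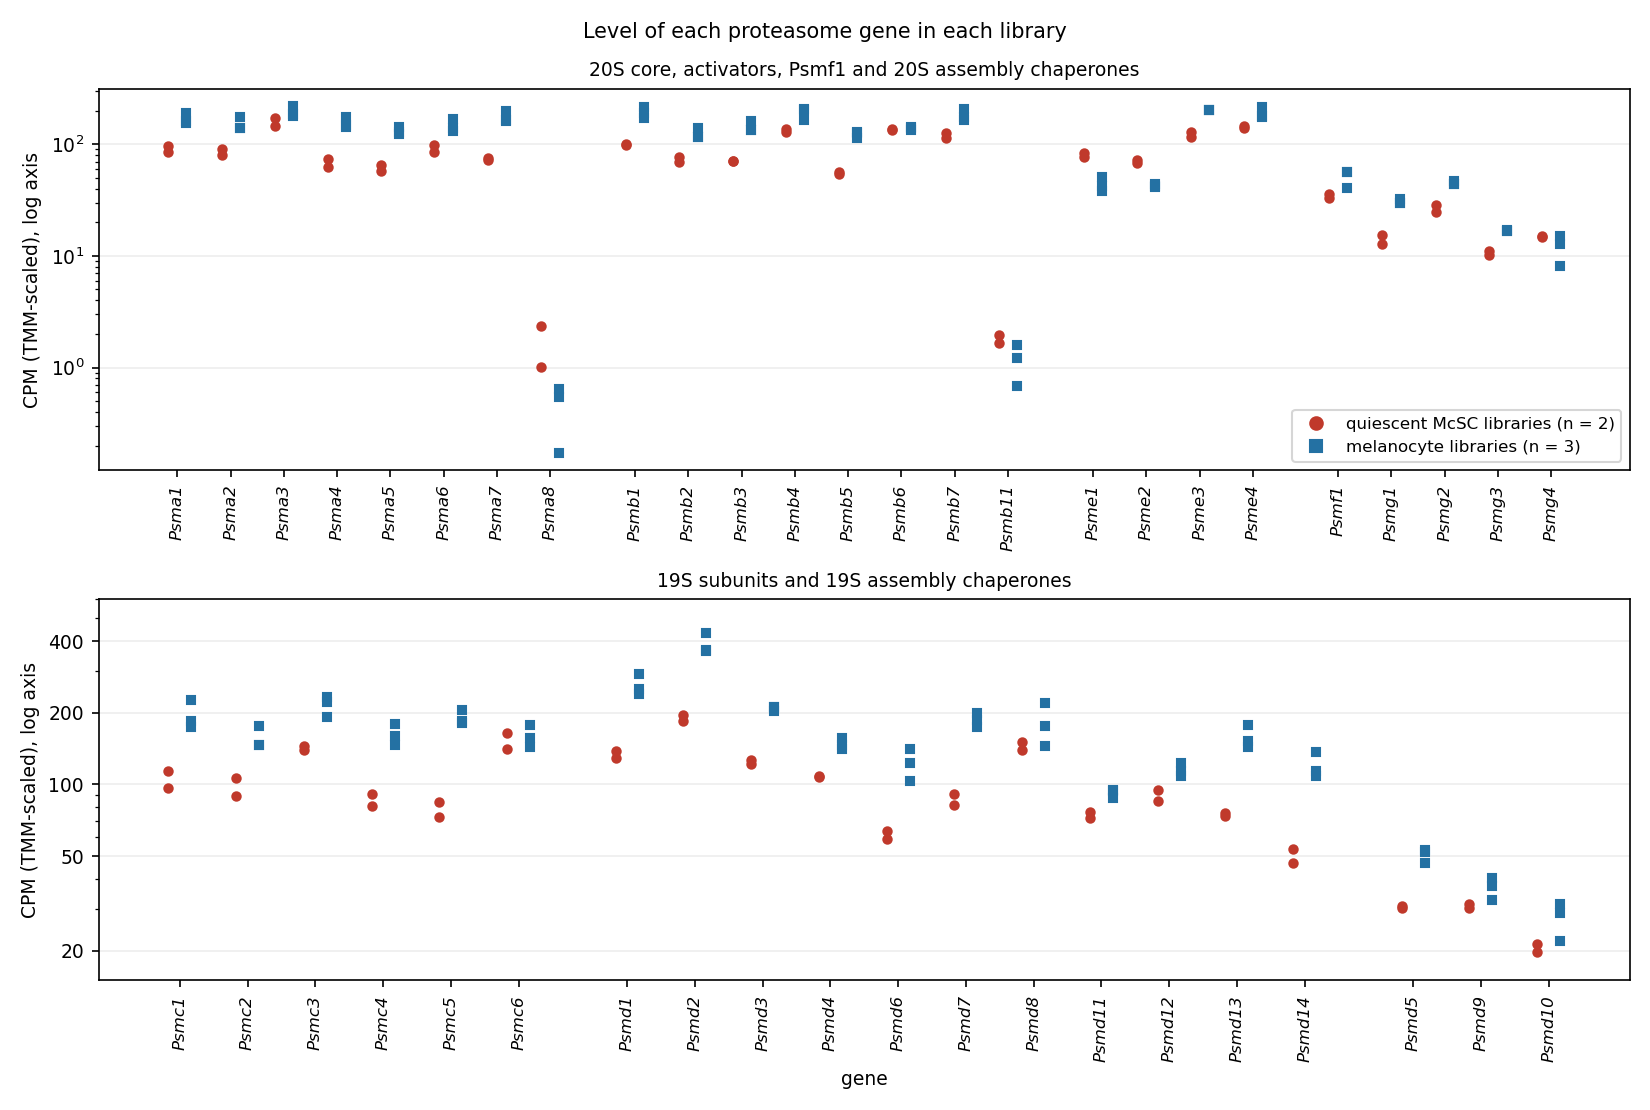
Level of each proteasome gene in each library (y axis, TMM-scaled CPM on a log scale; x axis, genes), with quiescent McSC libraries as circles (n = 2) and melanocyte libraries as squares (n = 3). For most genes the circles lie below the squares, for Psme1, Psme2, Psma8 and Psmb11 they lie above, and for Psmb6, Psmc6, Psmd8 and Psmg4 the groups overlap.

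Levels of different subunits were compared per length, as CPM per kilobase of principal transcript. Over the 14 core genes other than Psma8 and Psmb11, the level ran from 29.4 (Psma2) to 170.5 (Psmb6) in quiescent McSC, and from 52.1 (Psma2) to 191 (Psma7) in melanocytes. The highest was 5.81 times the lowest in quiescent McSC and 3.67 times in melanocytes. The median was 78.2 in quiescent McSC and 140.4 in melanocytes. Psmb6 had the highest of these levels in quiescent McSC and was below Psma7 in melanocytes (174). Over the 17 subunit genes of the 19S regulator the median was 57.6 in quiescent McSC and 97.1 in melanocytes. These levels depend on the transcript lengths chosen, which are equal for both groups.

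The activator genes divided. Psme1 and Psme2 encode the PA28α and PA28β subunits, which are induced by interferon and lie 5912 bases apart on chromosome 14. Psme1 (chromosome 14, 55578494 to 55581527) stood at 83.5 and 77.5 CPM in quiescent McSC, against 42.1, 50.3 and 38.0 CPM in melanocytes, and was 1.85-fold higher in quiescent McSC (0.89 ± 0.14, adjusted p = 0.00304). Psme2 (chromosome 14, 55587440 to 55591101) stood at 71.9 and 67.7 CPM, against 41.2, 42.4 and 44.1 CPM (0.71 ± 0.10, adjusted p = 0.00173). Both genes were above every melanocyte library in each quiescent McSC library, and both calls held under all 12 alternative settings.

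The other activators went the opposite way. Psme3, which encodes the nuclear PA28γ, stood at 130 and 116 CPM in quiescent McSC, against 202, 204 and 202 CPM in melanocytes (-0.72 ± 0.11, adjusted p = 0.00235). Psme4, which encodes PA200, stood at 147 and 139.8 CPM, against 180.2, 215 and 174 CPM (-0.41 ± 0.13, adjusted p = 0.0424). Psme4 kept its call in 6 of the 12 alternatives. Psme4 was not called when quiescent McSC replicate 1 (log2 fold change -0.44) or 2 (-0.37) or melanocyte replicate 2 (adjusted p = 0.08) was left out. Nor was it called with the replicate number as a block (0.121), with RLE size factors as the scaling (0.0537) or without the filter on low counts (0.0515). Per length, Psme1 stood at 1.54 and 1.61 times the level of Psme3 in quiescent McSC, against 0.50, 0.592 and 0.451 times in melanocytes. Against the ATPase gene Psmc5 the same ratio was 1.17 and 1.25 in quiescent McSC and 0.269, 0.29 and 0.248 in melanocytes. Psme2 was close to Psme1 in quiescent McSC, at 0.996 and 1.01 times its level, and varied more in melanocytes, at 1.13, 0.974 and 1.34 times.

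The inducible catalytic subunits replace the standard ones in the immunoproteasome. Of these 3 genes, 2 were higher in quiescent McSC (66.7%, against 26.2% of all genes tested). Psmb8 (β5i) stood at 23.7 and 24.7 CPM in quiescent McSC, against 2.00, 1.28 and 1.07 CPM in melanocytes (4.04 ± 0.30, adjusted p = 0.000193). Psmb9 (β1i) stood at 13.8 and 11.4 CPM, against 1.55, 0.968 and 1.39 CPM (3.28 ± 0.29, adjusted p = 0.000356). Psmb10 (β2i) stood at 19.1 and 20.2 CPM, against 12.3, 15.9 and 12.6 CPM, and just missed the threshold (0.53 ± 0.18, adjusted p = 0.0502). It was called higher without melanocyte replicate 2 (0.0271) and by DESeq2 (0.0178) and limma-voom (0.038), and with a filter of 5 CPM in 2 libraries (0.0397).

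Set per length beside the standard subunit of the same site, Psmb8 made up 19.4% and 19.5% of Psmb8 plus Psmb5 in quiescent McSC, against 0.961%, 0.547% and 0.471% in melanocytes. Psmb9 made up 5.55% and 4.80% of Psmb9 plus Psmb6 in quiescent McSC, against 0.683%, 0.398% and 0.58% in melanocytes. Psmb10 made up 11.8% and 13.6% of Psmb10 plus Psmb7, against 6.19%, 6.39% and 5.99%. At each site the quiescent McSC libraries were above the melanocyte libraries, and the standard subunit remained the larger share in every library. These shares were not tested. In the same libraries the immune markers summed to 13.0 and 14.6 CPM in quiescent McSC, of which Cd68 gave 11.1 and 10.8 CPM, against 32.7 to 61.1 CPM in melanocytes. The pan-leukocyte marker Ptprc was at 0.128 and 0.214 CPM in quiescent McSC, against 2.96, 1.25 and 1.39 CPM in melanocytes. Of the 8 immune markers, 2 were higher in quiescent McSC, 5 were lower and 1 was not called. Higher were the macrophage marker Cd68 (0.91, adjusted p = 0.0339, called in 6 of the 12 alternatives) and the Langerhans cell marker Cd207 (4.69, adjusted p = 0.00869). Cd207 stood at 0.241 and 1.49 CPM in quiescent McSC (15 and 167 counts), against 0.0247, 0.0293 and 0.0535 CPM in melanocytes (1, 2 and 1 counts). The other macrophage and myeloid markers of the list, Csf1r (-5.28), Lyz2 (-5.25), Adgre1 (-4.83) and Itgam (-1.76), were lower in quiescent McSC. The part of these immune cells, or of the keratinocytes above, in the inducible subunit levels was not tested.

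**Figure D3:**
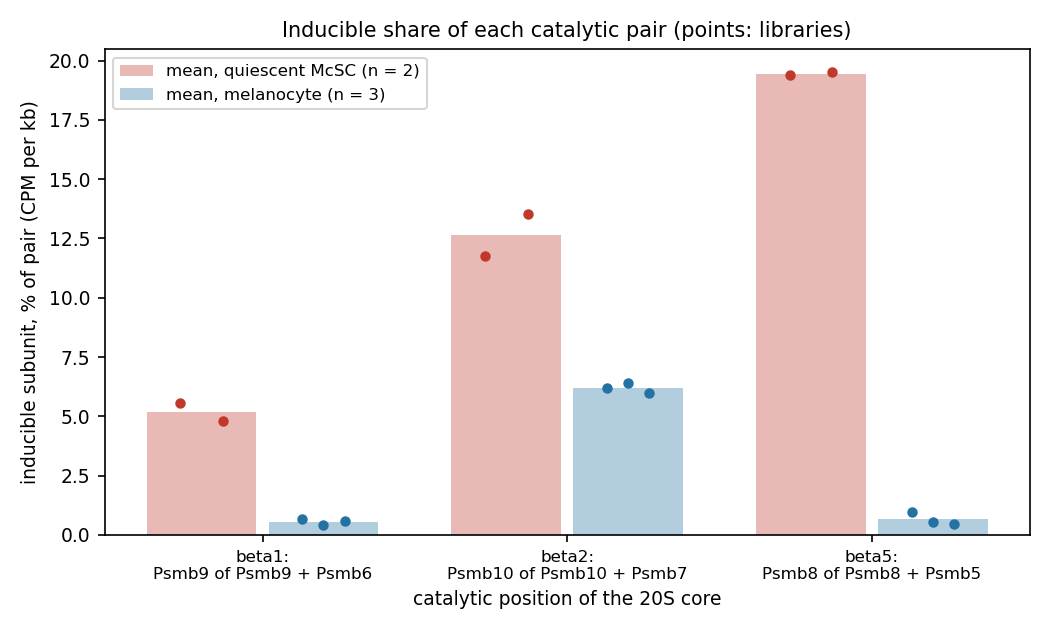
Share of the inducible subunit in each catalytic pair, in percent of the pair's CPM per kilobase (y axis), for the β1, β2 and β5 sites (x axis). Bars are group means starting at 0 and points are libraries; at the β5 site both quiescent McSC libraries lie near 19.4%, and all 3 melanocyte libraries are below 1%.

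Genes that help build the complex were mostly lower. Of the regulator Psmf1 and the core assembly chaperones, 4 of 5 were lower in quiescent McSC (80.0%, against 29.1% of all genes tested). Psmg1, which with Psmg2 starts the α ring, stood at 12.7 and 15.3 CPM in quiescent McSC, against 29.7, 32.0 and 29.7 CPM in melanocytes (-1.12 ± 0.15, adjusted p = 0.00153). Psmg2 (-0.75) and Psmg3 (-0.66) were lower too, whereas Psmg4, the partner of Psmg3, overlapped between the groups and was not called (0.31 ± 0.28, adjusted p = 0.388). Psmf1, which binds the core as PI31, was lower (-0.57 ± 0.18, adjusted p = 0.0357). Psmg3 was not called when quiescent McSC replicate 1 (0.0864) or 2 (0.0625) was left out. Psmf1 was not called when either of these (0.171 and 0.117) or melanocyte replicate 2 (0.1) or 3 (0.0902) was.

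Of the 3 assembly chaperones of the 19S base, 1 was lower (33.3%, a share near the 29.1% of all genes tested). Psmd5 stood at 30.1 and 30.7 CPM in quiescent McSC, against 46.8, 53.0 and 51.8 CPM in melanocytes (-0.73 ± 0.11, adjusted p = 0.00266). Psmd9 (-0.26, adjusted p = 0.153) and Psmd10 (-0.42, adjusted p = 0.105) had negative fold changes and were not called. Without melanocyte replicate 1, Psmd10 was called lower (0.0145), and with library size as the sole scaling all 3 chaperones were.

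Of 11 proteasome partners that the symbol rule does not cover, 3 were lower (27.3%, against 29.1% of all genes tested), 3 were higher (27.3%, against 26.2%) and 5 were not called, shares near those of all genes (median log2 fold change -0.24). Uchl5, a deubiquitinase of the 19S regulator (23.2 and 22.9 CPM in quiescent McSC, against 52.2, 53.8 and 54.2 CPM in melanocytes; -1.21 ± 0.11, adjusted p = 0.000332), and Pomp, which completes the β ring (-1.14 ± 0.11, adjusted p = 0.000461), were lower in quiescent McSC. Zfand5, which binds and stimulates the proteasome, went the opposite way, at 748 and 735 CPM in quiescent McSC, against 109, 162 and 165 CPM in melanocytes (2.35 ± 0.21, adjusted p = 0.000335). Sem1, a small lid subunit (-0.65), was lower, and Zfand2a (1.19) and Akirin2 (0.40), which brings proteasomes into the nucleus, were higher. Sem1 was not called when quiescent McSC replicate 1 (0.0659) or 2 (0.0711) was left out. Akirin2 was not called when either of these (0.13 and 0.203) or melanocyte replicate 1 (0.0741) or 2 (0.0838) was, and with library size as the sole scaling (0.343) or without the filter on low counts (0.0541) it missed the threshold too.

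Shuttle factors carry ubiquitin-tagged proteins to the proteasome. Of the 5 reported, 3 were lower, 1 was higher and 1 was not called in quiescent McSC (median log2 fold change -0.72). Among all genes tested, 29.1% were lower and 26.2% higher. Rad23b (-0.88 ± 0.13, adjusted p = 0.00206) and Ddi2, also the protease that activates NFE2L1 (-0.82 ± 0.10, adjusted p = 0.00119), were lower. Ubqln2 was higher, at 92.7 and 113 CPM in quiescent McSC, against 46.3, 50.8 and 50.7 CPM in melanocytes (1.06 ± 0.12, adjusted p = 0.000854), whereas its relative Ubqln1 was lower (-0.72).

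The NFE2L1 pathway controls proteasome genes. Of its 8 genes listed, the 6 transcription factors (Nfe2l1, Nfe2l2, Maff, Mafg, Mafk and the repressor Bach1) were higher in quiescent McSC. The ATPase gene Vcp was lower, and the glycosidase gene Ngly1 was not called (median log2 fold change of the 8 genes 1.02). The higher share was 75.0%, against 26.2% of all genes tested, and the lower share 12.5%, against 29.1%. Nfe2l1, which raises proteasome genes when the proteasome is impaired, stood at 234 and 265 CPM in quiescent McSC, against 138, 120 and 105 CPM in melanocytes (1.05 ± 0.15, adjusted p = 0.00184). Nfe2l2, its relative in the antioxidant response, was 3.96-fold higher (1.98 ± 0.13, adjusted p = 0.000119). The small Maf partners Mafk (488 ± 69.0 CPM in quiescent McSC, against 25.9 ± 1.83 CPM in melanocytes; SD, n = 2 and 3; 4.24 ± 0.15, adjusted p = 3.65e-05) and Maff (4.13 ± 0.11, adjusted p = 3.65e-05) were higher too. Vcp, which extracts NFE2L1 from the endoplasmic reticulum, was lower (-0.74), but had no call when quiescent McSC replicate 1 (0.0553) or 2 (0.0708) was left out. In the same libraries the summed dissociation stress genes were 26200 and 40550 CPM in quiescent McSC, against 2364 to 2778 CPM in melanocytes. The part of dissociation in the levels of the pathway genes was not tested.

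Of the 4 genes reported for ubiquitin and its activating enzymes, 1 was higher, 1 lower and 2 not called. These counts are near the shares of all genes tested, of which 26.2% were higher and 29.1% lower. The stress-inducible polyubiquitin gene Ubb stood at 2524 and 2812 CPM in quiescent McSC, against 513, 746 and 588 CPM in melanocytes, and was higher in quiescent McSC (2.12 ± 0.21, adjusted p = 0.000506). Rps27a, which encodes ubiquitin fused to a ribosomal protein, was not called (-0.09 ± 0.19, adjusted p = 0.705). Uba1, the main activating enzyme of ubiquitin, was lower (-0.62 ± 0.15, adjusted p = 0.0148), but had no call when quiescent McSC replicate 1 (0.103) or 2 (0.0785) was left out. The dissociation stress genes above were also higher in quiescent McSC, and a link between them and Ubb was not tested.

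**Figure D4:**
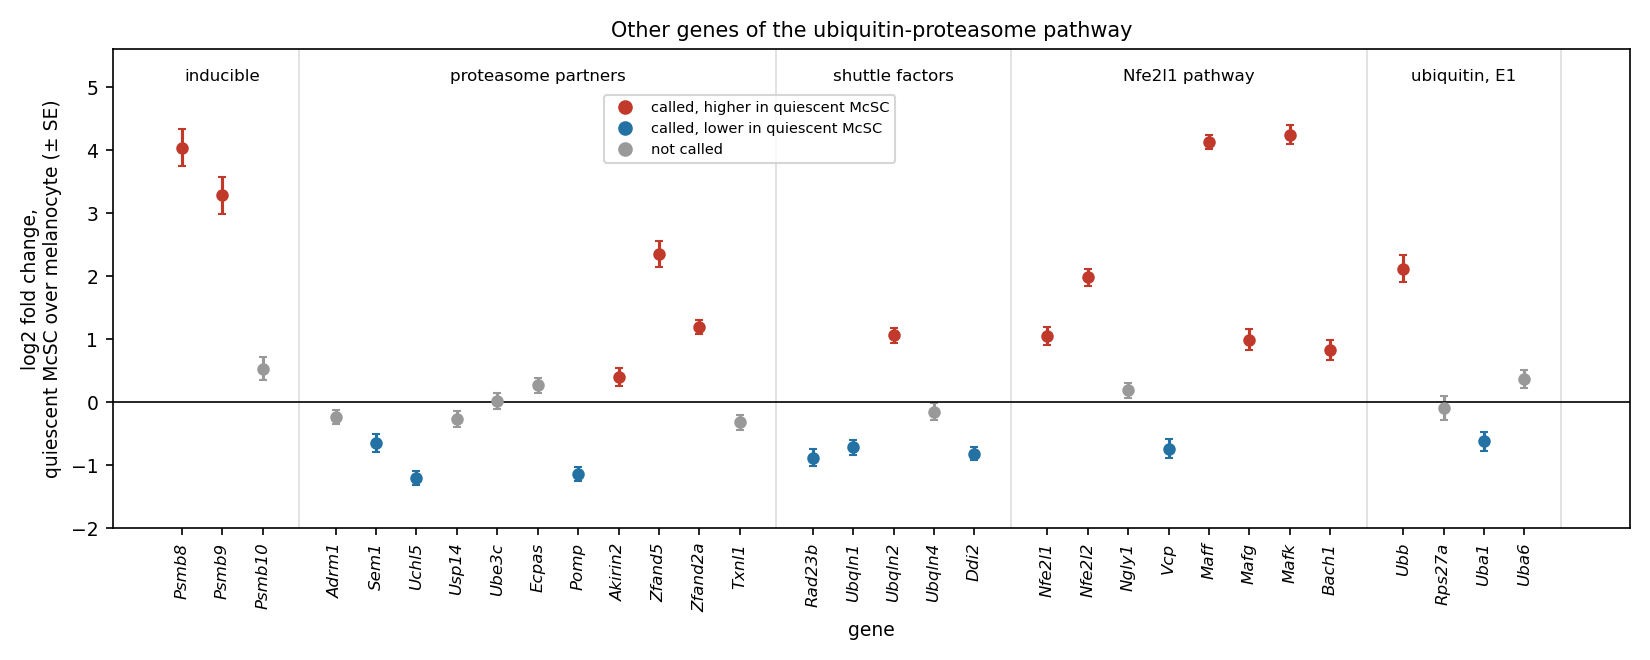
Log2 fold change (quiescent McSC over melanocyte, ± SE, y axis) of other genes of the pathway, grouped along the x axis into inducible subunits, proteasome partners, shuttle factors, the NFE2L1 pathway and ubiquitin genes. Psmb8, Maff and Mafk lie above 4, whereas Uchl5 and Pomp lie below -1.

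The members lie on 16 chromosomes. Promoter windows (250 bases before to 50 after the start, both strands) were matched by symbol for 37 members and 27025 genes in all. The element TGACNNNGC was in 16.2% of the members' windows (Psmb5, Psmb6, Psmc6, Psmd12, Psmd9 and Psme4), against 14.0% of all genes' windows. Of these 6 genes, 3 were lower and 3 were not called. The NF-Y box CCAAT was in 35.1% of the members' windows, against 41.1% of all. The interferon element, GAAA and GAAA with any 2 bases between, was in 5 of the 37 (13.5%), against 3.99% of all: Psme1, which was higher, Psmb3 and Psmd4, which were lower, and Psmd9 and Psmg4, which were not called. A match describes letters in the window and does not show a binding site.

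Libraries were non-stranded, so reads of overlapping genes cannot be told apart. Exons of 10 members overlapped those of another annotated gene, and 9 of these members were called lower. Of the genes they overlapped, AY074887 (with Psma4, log2 fold change -0.98) and Nek6 (with Psmb7, -0.48) were lower. Slc39a13 (with Psmc3) and Sirt3 (with Psmd13) were not called. Exons of the inducible subunit genes Psmb8 (with Gm20496) and Psmb9 (with Tap1) overlapped those of another gene too. For Psme1 the overlapping gene was Emc9, at 9.85 and 12.9 CPM in quiescent McSC, against 5.23, 4.65 and 5.45 CPM in melanocytes, which was also higher in quiescent McSC (1.16, adjusted p = 0.00613), though not when quiescent McSC replicate 2 was left out (0.061). Psme2 has a near-identical copy, Psme2b, at no more than 0.321 CPM in any library, so the split between these copies is uncertain.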

How the data were processed

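The authors deposited whole-number counts per gene and library, read here as raw counts. The submitters' processing notes list the build mm10 and the tools STAR (2.5.2a) and Salmon (0.8.2), but no source used here gives their roles, the counting program or the annotation. Poly-A selected, non-stranded libraries were sequenced, per the series' design text. Entrez identifiers were matched to RefSeq symbols (24045 of 24100, GRCm38.p6, which is mm10), and transcript lengths came from GENCODE vM21 principal transcripts.

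Genes were filtered with filterByExpr, scaled by TMM and tested with the two-sided quasi-likelihood F-test of edgeR 4.0.16 (R 4.3.3) in a single fit of 2 quiescent McSC and 3 melanocyte libraries without covariates. Replicates are biological, per the same text. Each SE is the log2 fold change, without its sign, divided by the square root of F. Alternatives were RLE or no scaling factors, no filter, a filter of 5 CPM in 2 libraries, DESeq2 1.42.0, limma-voom (limma 3.58.1), a replicate block and leaving out each library. The procedure was also run on simulated counts with few changed genes, balanced in direction, so its error rates in these data were not tested. A count of 3 equals 0.0241 to 0.171 CPM.

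Members, classes, lists and tests were chosen with earlier results of these data known. Every member may be named. Values in each library are given for the catalytic and inducible subunits, the activators, and in each class the smallest p and the largest fold change. Of the other lists, up to 3 genes with the smallest p fall under the rule; other genes given were chosen after their values were seen. The list gene Paaf1 was not analysed here, and some further list genes and a motif are not reported here.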

Additional observations from a re-analysis of the deposited data

How the results depend on the processing

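The count of members lower in quiescent McSC was between 23 and 38 under all 12 alternatives (34 as reported), and that of members higher was 2 or 3. With library size as the sole scaling the median log2 fold change of the members was -0.95, but that of all tested genes also moved, to -0.26 from -0.03 as reported, so the members stood -0.69 from it in both fits, and 47.4% of all calls as reported but 36.3% there were higher in quiescent McSC. Leaving out a library gave 2955 to 4857 genes higher in quiescent McSC in all (4448 as reported). With the replicate number as a block, 25 members were lower and 2 higher (7412 genes called in all). The calls of Psma8, Psmb4, Psmb7, Psmc3, Psmd4, Psmd11, Psmd12, Psme4, Psmf1 and Psmg3 were lost there. Those of Vcp, Uba1 and Akirin2 outside the members were lost too. Apart from Psme4, the lost calls listed for these genes above leave this setting out. Deviations from the group mean correlated at 0.0404 and -0.0552 in same-numbered libraries, and their numbers are not known to pair them. As the 2 quiescent McSC libraries deviate from their mean by equal and opposite amounts, these values cannot show whether libraries were paired. Of 538 member values under the alternatives, 482 kept direction and side of the threshold, 47 lost the call, 6 gained one and 3 changed sign, none of them called: Psmb6 (0.01 without melanocyte replicate 2; lowest -0.06 with 1 library left out) and Psmc6 (0.05 without quiescent McSC replicate 2 or melanocyte replicate 2; lowest -0.18). Without a call either way, Ube3c changed sign with library size only (-0.20), under the block (-0.03) and without melanocyte replicate 1 (-0.03) or 3 (-0.04; highest 0.15), Ngly1 (-0.03) with library size only, and Rps27a without quiescent McSC replicate 2 (0.00) or melanocyte replicate 2 (0.08). The cause of these changes was not tested. Depth limited Psma8 and Psmb11 most, with 7 to 148 and 30 to 186 counts per library.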
